A study of Mus musculus with 2 samples.

Results

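The genes described here are the VEGF receptors Kdr, Flt1 and Flt4, the neuropilins Nrp1 and Nrp2, the semaphorin receptor Plxnd1 and the ligand Vegfa. They are 7 of the 18323 genes present in both deposited count tables, were chosen by name, and all 7 had counts. The data are single mouse cells of wild type embryos, sorted on VE-cadherin and processed on 2 nanowell chips, one for E11.5 and one for E9.5. Each chip held 4 pools of cells, from the AGM (the aorta-gonad-mesonephros region, where the dorsal aorta forms blood stem cells) and from the yolk sac, taken inside (positive) or outside (negative) the VE-cadherin gate. How many embryos gave each pool is not given in the sources used here, and the antibody gate sorts on the protein made from Cdh5. Levels are given as CPM, a gene's summed counts in the wells of a pool scaled by all counts of those wells. Wells with at least 500 detected genes were used.

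VEGF-A binds VEGFR2, encoded by Kdr, which carries most of its signal into endothelial cells. VEGFR1, encoded by Flt1, binds the ligand tightly, signals weakly and is also made as a soluble decoy. VEGFR3, encoded by Flt4, binds mainly VEGF-C and VEGF-D. The neuropilins lack an enzyme domain of their own and act as co-receptors of VEGF and of class 3 semaphorins, and plexin D1 is a semaphorin receptor of endothelium. Vessels of the yolk sac and the dorsal aorta fail to form in mice that lack Kdr, and VEGF is supplied to endothelium largely by neighbouring cells.

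At E11.5 the wells used numbered 287 inside and 338 outside the gate for the AGM, and 357 inside and 379 outside for the yolk sac. At E9.5 they numbered 299 and 354 for the AGM, and 325 and 305 for the yolk sac. Pool totals ran between 850258 and 3862642 counts, and the median well held between 2532 counts (E11.5 AGM positive) and 12452 counts (E9.5 yolk sac negative). Each pool is 1 sample, so no p-value is given; the 95% intervals printed with values are exact and hold for counting error alone, not for differences between embryos. A pair of pools is called apart where CPM differed by at least 2-fold and the higher pool had at least 20 counts. A lower pool level can come from fewer cells of a type or from less RNA per cell, which a pool sum cannot tell apart, and stage and chip cannot be told apart. The chips share 473 well barcodes, which were read as chip positions. The summed level of 12 endothelial markers was 1471, 942, 1570 and 1790 CPM in the positive pools of the E11.5 AGM, the E11.5 yolk sac, the E9.5 AGM and the E9.5 yolk sac, against 63.1, 63.2, 56.5 and 30.8 CPM in their negative pools. The positive pools at E11.5 also held macrophage markers (12 genes, 1354 CPM in AGM and 970 CPM in yolk sac), against 32.6 and 626 CPM in the E9.5 positive pools. The list includes Mrc1, which was among the leading genes of the E9.5 yolk sac positive clusters described below. Csf1r, also on it, was seen in 3 of 319 wells of that pool, each thinned at random to 2000 counts. In the E11.5 yolk sac positive pool it was seen in 33 of 335.

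Stretches of sequence before the RefSeq start of the genes are shown because Kdr, Flt1, Flt4 and Plxnd1 differed alike between the gates, as described after them. ETS factors, several of which are made in endothelium, bind a core spelled GGAA. Each line gives the 30 bases with the most cores between 250 and 51 bases before the start (RefSeq, GRCm38.p6), 5′ to 3′ on the strand of the gene, with GGAA or its reverse complement TTCC in capitals.
Kdr: gtgggcgtgGGAAaccgGGAAacccaaacc
Flt1: ccttgacgtcactGGAAggaggtgccgggg
Flt4: cctggggcaagctGGAAgggacagagaggg
Plxnd1: caTTCCaggagctggccaGGAAccaGGAAa
Nrp1: ggggcgggaGGAAgggagGGAAgggctctg
Vegfa: ctctgggaTTCCcagtgtgTTCCtgagccc
By RefSeq the genes span chr5:75932827-75979072 (Kdr), chr5:147561604-147726438 (Flt1), chr11:49609679-49652739 (Flt4), chr6:115954811-115995339 (Plxnd1), chr8:128358591-128505476 (Nrp1), chr1:62703317-62818692 (Nrp2) and chr17:46016993-46032377 (Vegfa). The stretches lie at chr5:75978561-75978590 (Kdr, minus strand), chr5:147726066-147726095 (Flt1, minus), chr11:49609563-49609592 (Flt4, plus), chr6:115995149-115995178 (Plxnd1, minus), chr8:128358974-128359003 (Nrp1, plus) and chr17:46032577-46032606 (Vegfa, minus, the first of 2 RefSeq windows). Those of Kdr, Flt1, Plxnd1 and Nrp1 lie inside the RefSeq gene span, which reaches past the start used. Over the whole 200 bases there were 5 cores on both strands for Plxnd1, 4 for Kdr, Nrp1 and Vegfa, 2 for Flt1 and Flt4, and 0 for Nrp2. At least 1 core stood in 89.2% of all 32841 promoter windows of that length, at least 2 in 66.0%, at least 4 in 20.4% and at least 5 in 8.97%. The 4 genes that went with the gate had between 2 and 5 cores, and Nrp1 and Vegfa had 4. Of the other motifs searched on both strands, GATA stood in the windows of Kdr, Plxnd1 and Vegfa (48.1% of all windows), GGGCGG in those of 6 of the 7 genes, Plxnd1 excepted (24.6% of all windows), CANNTG in those of Kdr and Flt4 (59.1%), and ACGTG, the hypoxia response core, in none of the first windows (12.9%). The second Vegfa window, which starts at another RefSeq start, held 1 ACGTG and 2 CANNTG matches, and 1 ETS core against 4 in the first. These are matches of letters in a short window and say nothing of binding.

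The first comparison was VE-cadherin positive over VE-cadherin negative cells within each tissue and stage. In every one of the 4 pairs Kdr, Flt1, Flt4 and Plxnd1 were higher in the positive pool, the smallest ratio being 5.58-fold (Flt4, E11.5 yolk sac). That is 4 of the 6 members with enough counts in every pair, and among all 5341 such genes 2.19% were called higher and 0.655% lower. No member was lower in all 4 pairs. Nrp1, Nrp2 and Vegfa did not keep to one side of the gate.

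Kdr stood at 220 CPM (E11.5 AGM), 204 CPM (E11.5 yolk sac), 271 CPM (E9.5 AGM) and 325 CPM (E9.5 yolk sac) in the positive pools, against 8.23, 8.59, 10.0 and 5.95 CPM in the negative pools of the same tissues and stages. No positive pool came near a negative one. The log2 ratios were 4.74 (3.78 to 5.89), 4.57 (3.79 to 5.46), 4.76 (4.07 to 5.55) and 5.77 (5.17 to 6.44), again for the E11.5 AGM, the E11.5 yolk sac, the E9.5 AGM and the E9.5 yolk sac. From high to low the positive pools ran yolk sac of E9.5, AGM of E9.5, AGM of E11.5, yolk sac of E11.5, and neighbours in that order differed beyond counting error except the last 2. The 4 negative pools were not separated between neighbours. The most counts of Kdr in any well were 18 (E9.5 AGM positive).

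Flt1 followed Kdr closely, at 180, 220, 234 and 291 CPM in the positive pools of the E11.5 AGM, the E11.5 yolk sac, the E9.5 AGM and the E9.5 yolk sac. In the matching negative pools Flt1 had 12.8, 11.04, 7.65 and 5.95 CPM. Its log2 ratios were 3.81 (3.02 to 4.72), 4.32 (3.63 to 5.09), 4.94 (4.15 to 5.86) and 5.61 (5.00 to 6.28). Over the 8 pools, log2(CPM + 10) of Kdr and Flt1 had a Pearson r of 0.996, a description over 8 points that share libraries. After Kdr, the genes nearest to Flt1 were Tek (the angiopoietin receptor, r = 0.994), Vav3, Ramp2 and Cdh5.

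Flt4 had few counts, at 27.1, 17.1, 49.4 and 41.9 CPM in the positive pools of the E11.5 AGM, the E11.5 yolk sac, the E9.5 AGM and the E9.5 yolk sac. The negative pools held 0.914, 3.07, 5.88 and 0.777 CPM, from 1, 5, 10 and 3 counts. The log2 ratios of 4.89 (2.26 to 10.3), 2.48 (1.03 to 4.24), 3.07 (2.13 to 4.18) and 5.76 (4.14 to 8.07) therefore have wide intervals.

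Plxnd1 was highest in the E11.5 AGM among the positive pools, at 154 CPM, with 85.6 CPM in the E11.5 yolk sac, 119 CPM in the E9.5 AGM and 130 CPM in the E9.5 yolk sac. The negative pools of these had 5.49, 7.36, 9.41 and 5.44 CPM. The log2 ratios were 4.81 (3.65 to 6.28), 3.54 (2.67 to 4.54), 3.66 (2.93 to 4.50) and 4.58 (3.93 to 5.31). The step of Plxnd1 from the E11.5 AGM down to the E9.5 yolk sac positive pool, 0.24 (-0.09 to 0.58), was within counting error. Its nearest gene over the 8 pools was Pecam1 (r = 0.999), the endothelial adhesion molecule, followed by Tie1, Cd93, Cdh5 and Arap3.

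**Figure D1:**
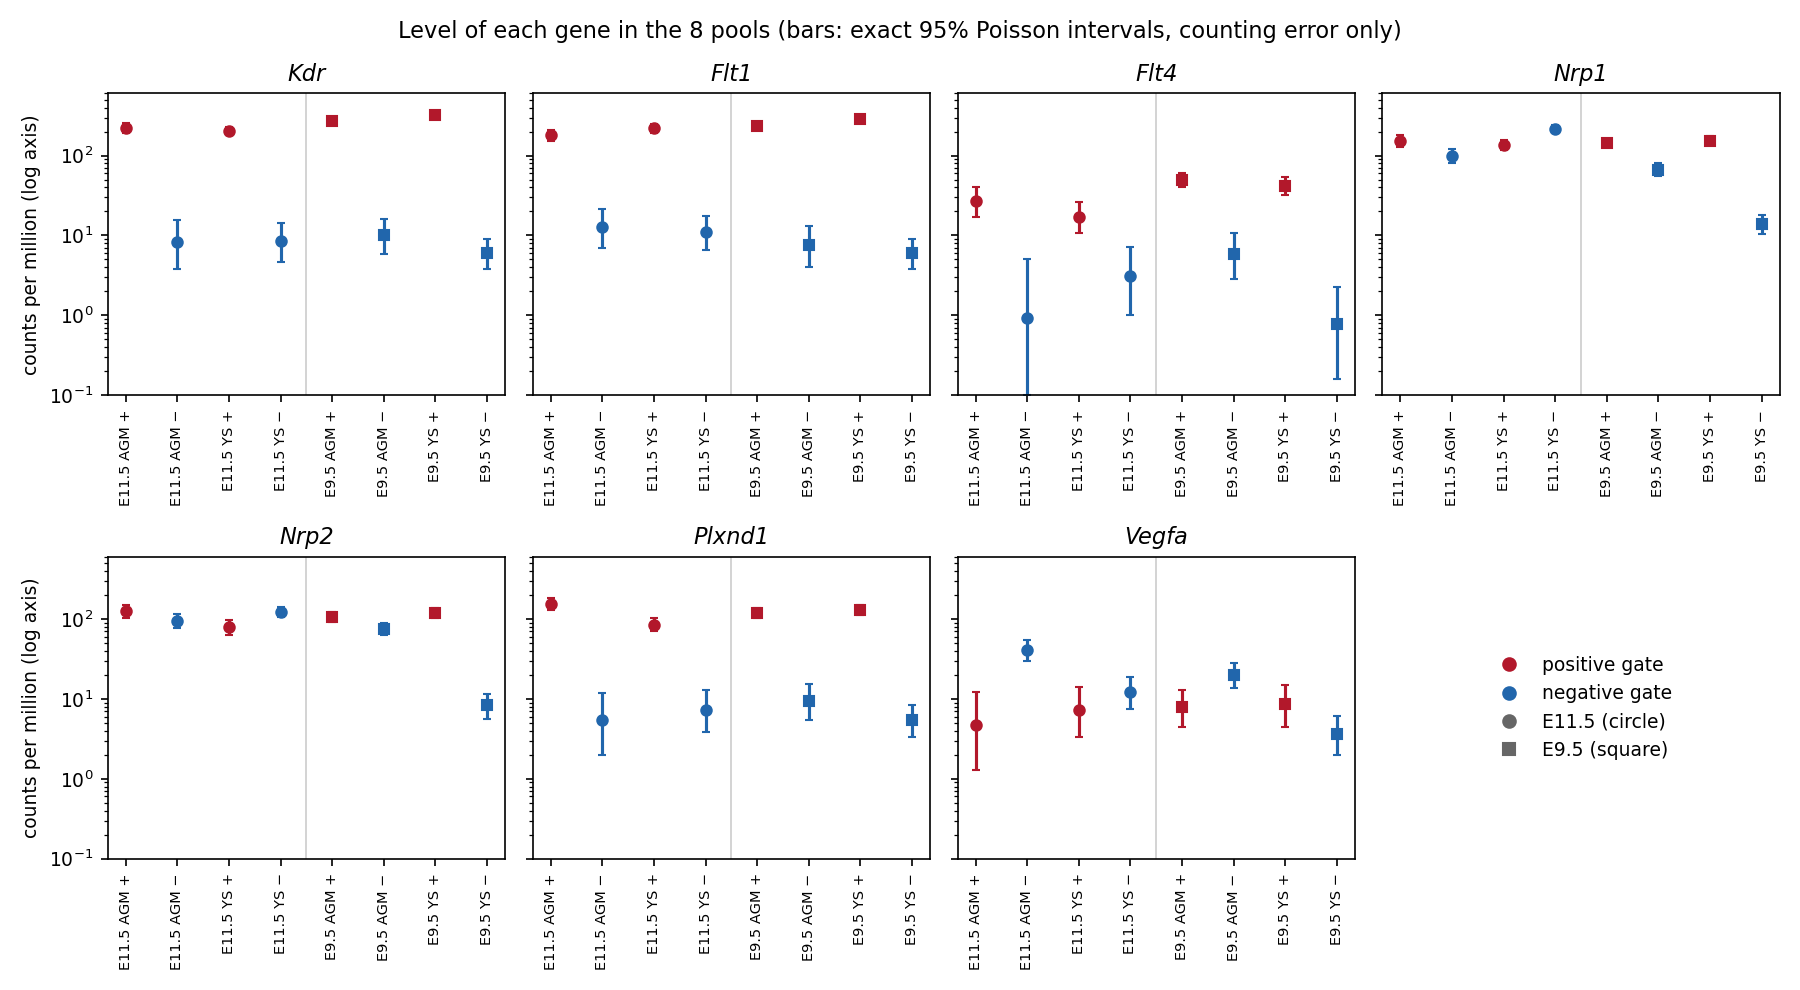
Level of the 7 genes in the 8 pools in CPM on a log axis, with exact 95% Poisson intervals; red, positive gate, blue, negative gate, circles E11.5, squares E9.5. For Kdr, Flt1, Flt4 and Plxnd1 every red point lies above every blue one, whereas Nrp1 is highest in the blue point of the E11.5 yolk sac (218 CPM) and Vegfa in that of the E11.5 AGM (41.1 CPM).

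The neuropilins were not confined to the positive gate, and in the E11.5 yolk sac they were higher in the negative one. Nrp1 had 154 CPM in positive against 99.7 CPM in negative cells of the E11.5 AGM, and 136 against 218 CPM in the E11.5 yolk sac. At E9.5 the same gene had 145 CPM in positive against 66.5 CPM in negative cells of the AGM and 154 against 13.7 CPM in the yolk sac. The log2 ratios for Nrp1 were 0.63 (0.25 to 1.01), -0.68 (-0.95 to -0.41), 1.13 (0.80 to 1.45) and 3.49 (3.05 to 3.95). The negative pool of the E11.5 yolk sac led the order of all 8, and its distance to the next pool exceeded counting error. In the E11.5 AGM, where the median gene gave -0.86, TMM scaling moved Nrp1 to 1.26 and Nrp2, described next, to 1.02, past 2-fold.

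Nrp2 took the same course, with 125 CPM in positive against 95.1 CPM in negative cells of the E11.5 AGM and 79.0 against 122 CPM in the E11.5 yolk sac. At E9.5 it had 107 CPM in positive against 75.3 CPM in negative cells of the AGM and 119 against 8.28 CPM in the yolk sac. Its log2 ratios were 0.39 (-0.01 to 0.79), -0.63 (-0.99 to -0.27), 0.50 (0.18 to 0.83) and 3.85 (3.30 to 4.44). In the order of Nrp2 over the pools, only the last step, down to the E9.5 yolk sac negative pool, exceeded counting error. In the positive pool of the E11.5 yolk sac 98 of 357 wells (27.5%) fell in the endothelial-like clusters taken up with the cell classes. With those wells alone in the positive gate, the log2 ratio became 0.06 for Nrp1 and 0.78 for Nrp2.

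Nrp1 and Nrp2 resembled each other over the 8 pools (r = 0.953) more than either resembled Kdr (r = 0.515 for Kdr with Nrp1 and 0.467 with Nrp2). The genes nearest to Nrp1 were Myh9 (non-muscle myosin heavy chain, r = 0.977), Tmem109, Rock2, Fmnl3 and Ankrd50. Those nearest to Nrp2 were Rock2 (r = 0.991), Fmnl3, Amotl1, Tmem109 and Rai14, 3 of which are also on the list of Nrp1. The genes nearest to Kdr were Cdh5, which encodes VE-cadherin itself (r = 0.997), Flt1, Pecam1, Ramp2 and Cyyr1, and those nearest to Flt4 were Thsd1, Afap1l1, Cldn5, Kank3 and Sh2b3. These were ranked among 8733 genes with at least 100 counts and are a description over 8 pools.

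Vegfa, the ligand, was highest in negative cells of the AGM. It had 4.70 CPM in positive against 41.1 CPM in negative cells of the E11.5 AGM, and 7.88 against 20.0 CPM in the E9.5 AGM. The log2 ratios were -3.13 (-5.07 to -1.67) and -1.34 (-2.33 to -0.43), called lower in the positive gate in both. The E9.5 ratio fell short of 2-fold under TMM scaling (-0.90) and DESeq2 size factors (-0.97). In the yolk sac the values were 7.33 CPM in positive and 12.3 CPM in negative cells at E11.5 (log2 ratio -0.74, -2.06 to 0.46). At E9.5 they were 8.68 and 3.62 CPM, from 12 and 14 counts, too few to be called. The E11.5 AGM positive value rests on 4 counts. The genes nearest to Vegfa over the 8 pools were Dzip3 (r = 0.986), Fbxo21, Mccc1, Astn2 and Klhl7.

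**Figure D2:**
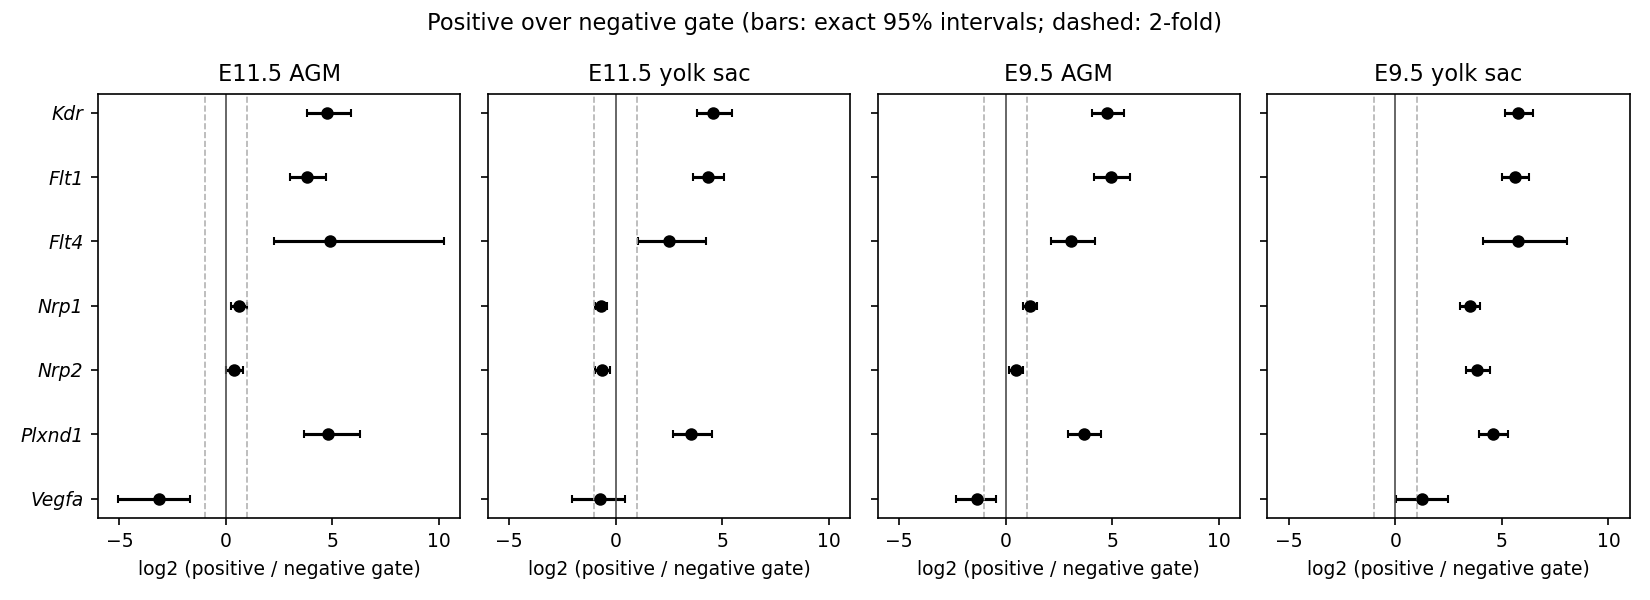
Log2 ratio of CPM, positive over negative gate, for each gene in the 4 pairs of pools, with exact 95% intervals; dashed lines mark 2-fold. Kdr, Flt1, Flt4 and Plxnd1 lie right of the 2-fold line in all 4 panels, Nrp1 and Nrp2 lie left of 0 in the E11.5 yolk sac (-0.68 and -0.63), and Vegfa lies left of the 2-fold line in both AGM panels.

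Wells were compared at a common depth by thinning each to 2000 counts at random. At that depth Kdr was detected in 26.2%, 26.0%, 34.8% and 47.0% of positive wells of the E11.5 AGM, the E11.5 yolk sac, the E9.5 AGM and the E9.5 yolk sac. In the negative pools of these it was detected in 1.59%, 1.10%, 2.26% and 1.32% of wells. The unthinned shares of Kdr, which depend on depth, were 37.3%, 36.4%, 67.2% and 67.4% in the positive pools against 2.37%, 3.69%, 3.95% and 7.21% in the negative ones. Flt1 behaved alike, with thinned shares between 24.3% and 42.0% in positive pools and between 1.32% and 2.79% in negative pools. For Nrp1 the thinned share was 22.1% in positive against 32.7% in negative wells of the E11.5 yolk sac and 24.1% against 1.64% in those of the E9.5 yolk sac. Vegfa was seen in 0.476% of positive against 7.97% of negative wells of the E11.5 AGM.

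Wells labelled as negative controls were read as wells that received no cell, and where their counts came from was not tested. Among 47 such wells of the E11.5 chip, with a median of 329 counts, Nrp1 had 8 counts in 8 wells (17.0%, 7.65% to 30.8%), Flt1 had 2, Kdr and Nrp2 had 1 each, and Flt4, Plxnd1 and Vegfa had 0, which allows up to 6.38% of such wells. The mean count of Nrp1 per well was 0.456 in positive and 0.322 in negative cells of the E11.5 AGM and 0.468 in positive and 0.937 in negative cells of the E11.5 yolk sac, against 0.170 in these empty wells. Among 48 empty wells of the E9.5 chip Flt1 had 2 counts and the other 6 genes 0. Wells with stem cell RNA held at most 4 counts of any of the 7 on either chip. The 47 empty wells of E11.5 held 17289 counts in all, so that Nrp1 there was above its CPM in every pool, though from 8 counts. The part of free RNA in the E11.5 levels of Nrp1 was not tested.

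Clustering without the 7 genes placed the positive wells of E11.5 in several groups. Endothelial-like clusters held 134 of 287 wells in the AGM (133 of them in 1 cluster, led by Ptprm, Cdh5 and Arhgap18) and 98 of 357 in the yolk sac (96 of them in another, led by Stab2, Calcrl and Lyve1). Most other positive wells were erythroid-like, macrophage-like or visceral endoderm-like. Kdr reached 380 CPM in the 133 endothelial-like wells of the main AGM cluster and 551 CPM in the 96 of the main yolk sac cluster. In the other named clusters of positive wells it lay between 59.2 and 93.9 CPM, and in clusters of negative wells between 6.14 and 10.6 CPM in the 3 clusters that held most of them. Whether free RNA or doublets gave part of the middle values was not tested. Cdh5, the gene of the sorted protein, showed the same 3 tiers, with 713 CPM (AGM) and 548 CPM (yolk sac) in the endothelial-like wells. In erythroid-like positive wells Cdh5 still had 209 CPM (AGM, 83 wells) and 109 CPM (yolk sac, 139 wells).

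In macrophage-like clusters Nrp1 was above Nrp2. Nrp1 had 133 CPM in 43 such wells of the AGM and 208 CPM in 37 of the yolk sac, whereas Nrp2 had 46.7 CPM (7 counts) and 6.72 CPM (1 count). Wells with the macrophage receptor gene Csf1r did not show this in the E11.5 AGM positive pool, at 2000 counts a well. There Nrp2 was seen in 35.5% (19.2% to 54.6%) of 31 such wells against 15.6% (10.7% to 21.8%) of the others. Nrp1 was seen in 19.4% (7.45% to 37.5%) against 28.5% (22.0% to 35.7%). In endothelial-like wells both were detected, with 227 CPM of each in the AGM cluster and 225 CPM (Nrp1) and 213 CPM (Nrp2) in that of the yolk sac. Among negative wells of the yolk sac at E11.5, Nrp1 had 331 CPM in 155 mesenchyme-like wells and 124 CPM in 213 erythroid-like wells, and Nrp2 had 183 and 62.6 CPM. All 214 erythroid-like wells of that pool also held 2346 CPM of Col1a1, a collagen of mesenchyme, against 4296 CPM in the mesenchyme-like wells. The part of mesenchyme RNA in their Nrp1 was not tested. In a finer clustering (resolution 2), 158 wells of that pool lay in an erythroid-like cluster. Another 57 lay in a second mesenchyme-like cluster, led by Col1a1, Col1a2 and Acta2. Part of the wells called erythroid-like here thus changed class, so the name does not hold for all of them. Vegfa had 41.6 CPM in the 331 mesenchyme-like wells of the AGM negative gate and 7.98 CPM in those of the yolk sac, and 0 counts in 82 macrophage-like wells. The 331 wells are nearly the whole pool of 338. Their cluster was named by 3 markers (Pdgfra, Twist1 and Prrx1), with 0 markers among its leading genes. At resolution 2, 104 wells of the pool stayed mesenchyme-like and 226 lay in an unnamed cluster, so the class of the Vegfa wells is not resolved.

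**Figure D3:**
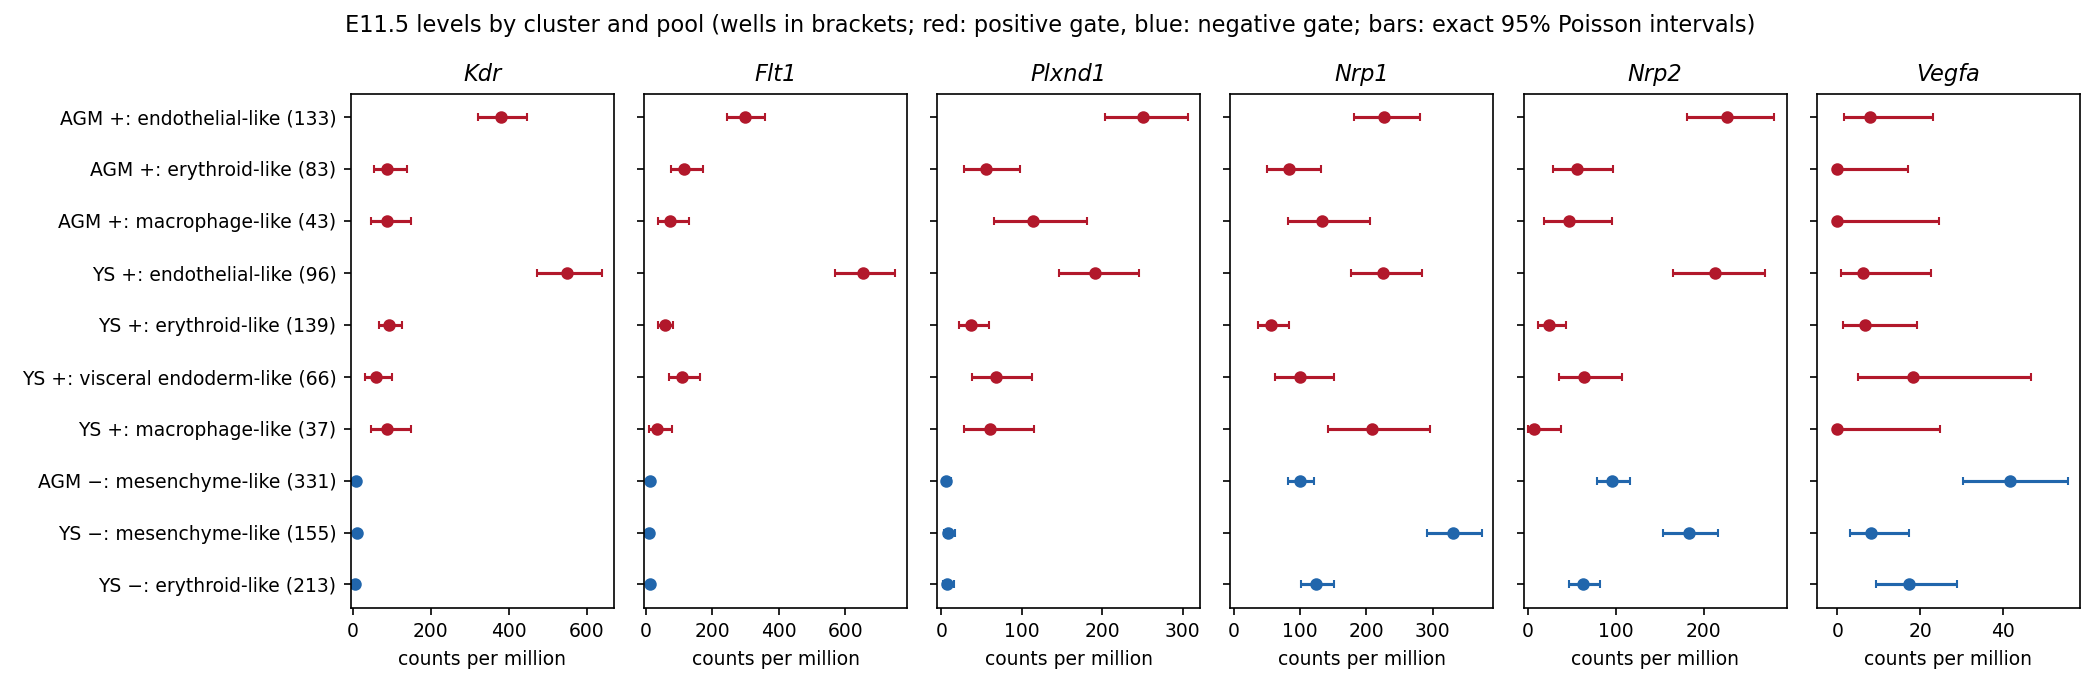
E11.5 levels of 6 genes in CPM by cluster and pool, with exact 95% Poisson intervals and the number of wells in brackets; red, positive gate, blue, negative gate. Kdr, Flt1 and Plxnd1 are highest in the endothelial-like rows. Nrp1 is also high in macrophage-like wells of the yolk sac (208 CPM) and mesenchyme-like negative wells of the yolk sac (331 CPM). Vegfa is highest in the mesenchyme-like row of the AGM, which holds 331 of the 338 wells of that negative pool.

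The second comparison was AGM over yolk sac. In the positive gate no member was at least 2-fold apart in the same direction at both stages (0 of 6 measurable), where 1.01% of all genes were called higher and 1.40% lower. Kdr had 220 CPM in the AGM against 204 CPM in the yolk sac at E11.5, and 271 against 325 CPM at E9.5. The E11.5 ratio of Kdr, 0.11 on the log2 scale, turned to -0.86 with a stricter choice of wells (1000 genes or more, mitochondrial share of 10% or less), and lay between -0.15 and -0.14 under the 3 other scalings. At E11.5 the largest difference was in Plxnd1, a receptor of Sema3e, with 154 CPM in the AGM against 85.6 CPM in the yolk sac (log2 ratio 0.85, 0.47 to 1.23). Nrp2 had 125 against 79.0 CPM there (0.66, 0.25 to 1.07), a sign that turned with the same wells (-0.70).

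Within the endothelial-like wells of E11.5 the tissues differed beyond counting error in Flt1. It had 296 CPM in 134 AGM wells against 646 CPM in 98 yolk sac wells, a log2 ratio of -1.12 (-1.47 to -0.79), where the whole pools gave -0.29. Kdr had 383 against 551 CPM (-0.52, -0.85 to -0.20), where the whole pools gave 0.11. Plxnd1 went the other way, with 254 against 191 CPM, but its interval reached 0 (0.42, -0.06 to 0.90). Nrp1 and Nrp2 lay within 0.13 of 0 on the log2 scale. In wells picked by a simpler rule added after seeing the data, at least 3 of 12 endothelial markers detected, Flt1 was again lower in the AGM (-0.77, -1.14 to -0.41), Kdr gave -0.28 (-0.63 to 0.06) and Plxnd1 0.71 (0.20 to 1.22). These wells lie on 1 chip, so chip does not differ between them, but each tissue is 1 pool.

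In the negative gate Vegfa was the 1 of 3 measurable members called higher in AGM than in yolk sac cells at each stage, with 41.1 against 12.3 CPM at E11.5 (log2 ratio 1.75, 0.96 to 2.58) and 20.0 against 3.62 CPM at E9.5 (2.46, 1.53 to 3.48). Of all genes 34.7% were called higher and 2.28% lower in that comparison, a share like that among the members, and the median gene was itself higher in the AGM by 0.91 (E11.5) and 1.18 (E9.5) on the log2 scale. Under TMM scaling Vegfa gave 0.87 and 1.33 and was no longer called at E11.5. Nrp1 turned between stages: 99.7 CPM in the AGM against 218 CPM in the yolk sac at E11.5 (-1.13, -1.45 to -0.81), and 66.5 against 13.7 CPM at E9.5 (2.28, 1.79 to 2.78). Nrp2 did likewise, with -0.36 (-0.72 to -0.01) at E11.5 and 3.18 (2.62 to 3.79) at E9.5. The signs of both neuropilins held under the 3 other scalings, but the sizes moved. Nrp1 then was -1.80 or lower at E11.5 and lay between 1.05 and 1.66 at E9.5. Nrp2 lay between -1.23 and -1.04 at E11.5, past 2-fold, and between 1.96 and 2.56 at E9.5.

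The third comparison was E11.5 over E9.5, in which stage cannot be told apart from chip. In the positive gate 0 of 6 measurable members were called in the same direction in both tissues, where 2.45% of all genes were called higher and 20.0% lower. The median gene was lower at E11.5 by log2 ratios of -0.48 (AGM) and -0.77 (yolk sac), and the median share of haemoglobin counts in a well was 25.6% at E11.5 against 24.4% at E9.5 in the AGM and 34.4% against 19.0% in the yolk sac. Kdr gave -0.30 (-0.55 to -0.06) for the AGM and -0.67 (-0.90 to -0.45) for yolk sac cells, and both signs turned (0.10 and 0.10) when haemoglobin, mitochondrial genes and Gm42418 were left out of the totals. Flt4 in the yolk sac was the only member called in a single pair, at 17.1 CPM against 41.9 CPM (-1.29, -2.09 to -0.55), a pair in which 38.7% of all genes were called lower. It was within 2-fold under TMM scaling (-0.79), DESeq2 size factors (-0.62) and totals without haemoglobin, mitochondrial genes and Gm42418 (-0.52).

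Among endothelial-like wells of the AGM, 134 of 287 at E11.5 and 298 of 299 at E9.5, the ratios over E9.5 were all higher than in the whole pools. This choice left out wells almost only at E11.5, where Kdr was lower in the other named clusters. The rise over the whole pools thus follows in part from the choice of wells and is no result about the stages. Nrp2 had 228 CPM at E11.5 against 106 CPM at E9.5 (log2 ratio 1.10, 0.72 to 1.47), and Plxnd1 had 254 against 119 CPM (1.09, 0.73 to 1.44). Nrp1 gave 0.66 (0.30 to 1.01), Kdr 0.49 (0.22 to 0.76) and Flt1 0.33 (0.02 to 0.63), while Flt4 gave -0.07 (-0.89 to 0.67). With at least 3 endothelial markers as the rule, Plxnd1 again gave 1.09 and Nrp2 0.91. In the yolk sac the rule of 3 markers left 93 of 357 wells of E11.5 but 266 of 325 of E9.5. Wells of the E11.5 pool were also shallower, with a median of 762 detected genes against 1504 in the E9.5 pool. The rule rests on detected markers and so depends on depth. How far depth and the choice of wells gave the ratios of these wells was not tested, so they are no result about the stages. The signs of Kdr and Flt1 were opposite to those of the whole pools. Kdr had 451 against 341 CPM (log2 ratio 0.40, 0.13 to 0.67), where the whole pools gave -0.67, and Flt1 had 504 against 314 CPM (0.68, 0.41 to 0.94), where they gave -0.40. Nrp1 (0.22), Nrp2 (0.32), Plxnd1 (0.21) and Flt4 (-0.91) had intervals that include 0. Endothelial-like clusters of the yolk sac could not be compared, since the E9.5 yolk sac positive wells lay in 2 clusters that stayed unnamed, led by Stab2 and Lyve1, with 1 well elsewhere. In those clusters Kdr had 424 CPM (165 wells) and 215 CPM (159 wells), and Nrp1 211 and 91.5 CPM. They had 8 and 6 of the 12 endothelial markers, against 3 of any other list, but genes of other lists stood among their leading genes. At resolution 2, 136 wells of the pool lay in an endothelial-like cluster and 37 in one like haemogenic cells and early blood. Another 114 and 30 lay in unnamed clusters.

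**Figure D4:**
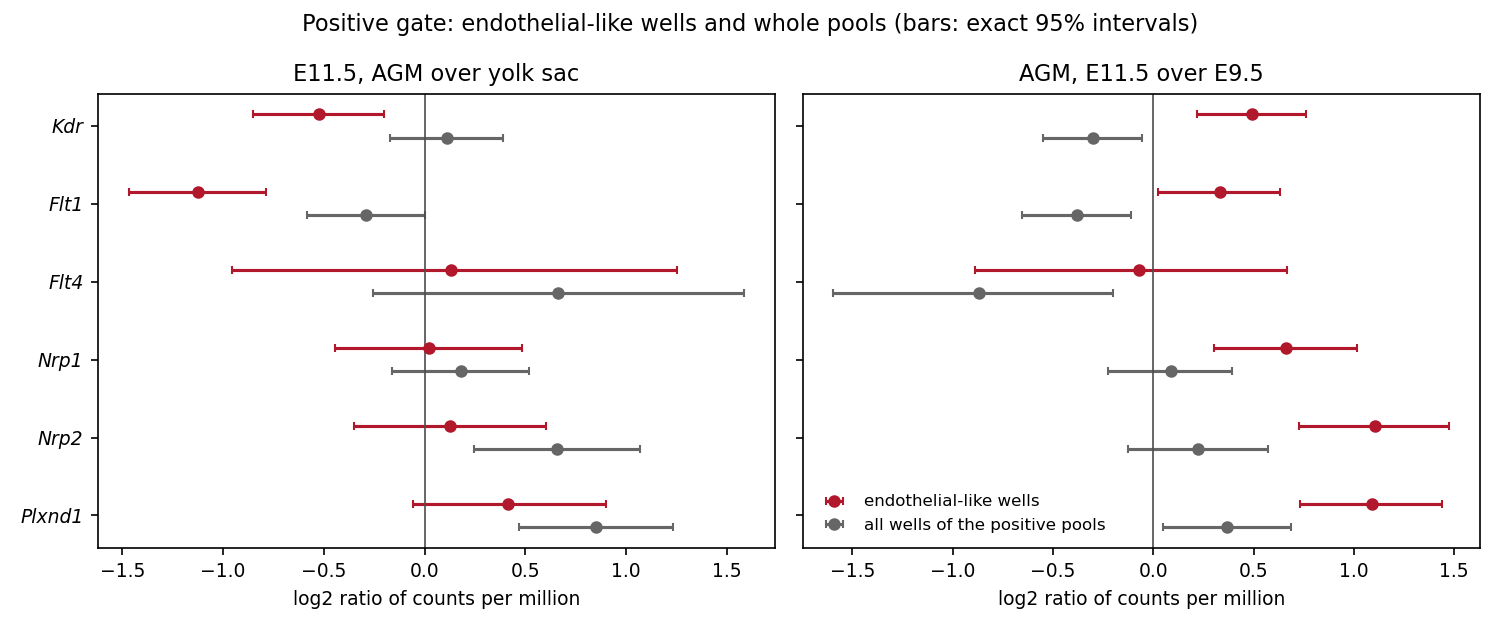
Log2 ratio of CPM in the positive gate for 6 genes, in endothelial-like wells (red) and in all wells of the pools (grey), with exact 95% intervals; left, E11.5 AGM over yolk sac, right, AGM at E11.5 over E9.5. Flt1 lies at -1.12 in red and -0.29 in grey on the left, and every red point lies right of its grey one on the right panel. There the red points use 134 of 287 wells at E11.5 but 298 of 299 at E9.5, so the shift follows in part from the choice of wells.

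In the negative gate the neuropilins of the yolk sac gave the largest stage ratios among the 7 genes. Nrp1 had 218 CPM at E11.5 against 13.7 CPM at E9.5 (log2 ratio 3.99, 3.57 to 4.43), and Nrp2 had 122 against 8.28 CPM (3.88, 3.34 to 4.47), where the median gene gave 0.18. In the AGM Nrp1 gave 0.58 (0.19 to 0.98) and Nrp2 0.34 (-0.05 to 0.72). The yolk sac difference was also seen within cell classes as named at resolution 1. In mesenchyme-like wells (155 at E11.5, 96 at E9.5) Nrp1 had 331 against 18.3 CPM (4.18, 3.58 to 4.83) and Nrp2 183 against 15.4 CPM (3.58, 2.91 to 4.31). In erythroid-like wells (214 and 209) Nrp1 gave 3.46 and Nrp2 3.82, while the mesenchyme genes Col1a1, Col3a1 and Pdgfra gave 3.61, 3.15 and 4.00 in the same wells. Mesenchyme genes differed alike: the summed level of 12 markers in the whole pool was 8675 CPM at E11.5 (0 of them at 0) against 852 CPM at E9.5 (1 at 0), with Col1a1 at 4296 against 403 CPM (log2 ratio 3.41) and Pdgfra at 140 against 8.79 CPM (3.99) in the mesenchyme-like wells. The median depth there was 4493 counts a well at E11.5 and 13776 at E9.5, and whether the class holds the same cells at both stages was not tested. Both classes depended on the resolution. At resolution 2 the mesenchyme-like clusters held 153 and 57 wells of this pool at E11.5. At E9.5 only 27 wells stayed mesenchyme-like, and 76 lay in a second erythroid-like cluster.

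Vegfa in the negative gate was higher at E11.5 in both tissues, at 41.1 against 20.0 CPM in the AGM (log2 ratio 1.04, 0.37 to 1.73) and 12.3 against 3.62 CPM in the yolk sac (1.76, 0.70 to 2.86). It was again the 1 of 3 measurable members called, where 10.4% of all genes were called higher and 6.28% lower. The AGM value sits at the 2-fold line and was under it with TMM scaling (0.95) and with wells weighted alike (0.92). In erythroid-like wells of the yolk sac it had 17.1 CPM at E11.5 against 2.00 CPM at E9.5 (log2 ratio 3.10, 1.54 to 4.92), from 14 and 5 counts, too few to be called. Mesenchyme-like wells gave 0.28, from 6 and 9 counts, with an interval that includes 0, and the difference between the classes was not tested. Both classes changed in part at resolution 2, as described above.

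Other genes of the pathway were counted by list. Of 13 VEGF and semaphorin ligands in both tables, 3 were measurable in all 4 gate pairs and 0 were called. Vegfc, the ligand of VEGFR3, was highest in the E9.5 yolk sac positive pool (115 CPM against 2.85 CPM in the negative one). Sema3a, a neuropilin-1 ligand, had 17.6 CPM in positive against 191 CPM in negative cells of the E11.5 AGM, and 15.8 against 74.7 CPM in the E9.5 AGM, and in the negative gate 4 of 7 measurable ligands (Vegfb, Sema3a, Sema3c and Sema3d) were called higher in the AGM at both stages, where 34.7% of all genes were. Of 17 factors known to act on the receptor genes, 10 were measurable across the gate and 6 were called higher in the positive pools: Ets1, Ets2, Erg, Elk3, Sox17 and Mef2c, where 2.19% of all genes were. Erg, an ETS factor of endothelium, had 80.0, 53.8, 82.5 and 94.0 CPM in the positive pools of the E11.5 AGM, the E11.5 yolk sac, the E9.5 AGM and the E9.5 yolk sac, against 29.3, 4.29, 4.12 and 1.81 CPM in the negative ones.

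The other lists were counted over the gate against the same 2.19% of all genes called higher and 0.655% called lower. Among 13 plexins and co-receptors, 6 were measurable, with Cdh5 called higher and Sdc2, a heparan sulphate carrier, called lower in the positive gate. Nos3, the endothelial nitric oxide synthase, was the 1 of 22 measurable signal carriers called, Ptprb, a phosphatase that acts on endothelial receptors, the 1 of 8 negative regulators, and Aplnr the 1 of 3 response genes. Of 10 measurable hypoxia factors and targets Epas1, a hypoxia-inducible factor of endothelium, was called higher in the positive gate. Between the stages, Slc2a1, a glucose transporter, and the glycolysis genes Ldha and Pgk1 were the 3 of 10 measurable hypoxia genes called lower at E11.5 in the positive gate, where 20.0% of all genes were. In the negative gate Ldha and Pgk1 were the 2 of 9 called lower, where 6.28% of all genes were, and the median log2 ratio of the list was -0.17 in the AGM and 0.47 in the yolk sac, against 0.03 and 0.18 over all genes.

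Co-detection in single wells was counted at 2000 counts a well and set beside the product of the 2 shares. In the whole positive pools 42 of the 47 pairs of genes with at least 5 wells expected had more wells with both than expected. Kdr and Flt1 were found together in 19 wells against 13.4 expected in the E11.5 AGM, 41 against 23.6 in the E11.5 yolk sac, 42 against 34.8 in the E9.5 AGM and 73 against 63.0 in the E9.5 yolk sac. Within the endothelial-like wells of E11.5 the excess was small or absent: 18 against 16.1 in the AGM and 36 against 36.5 in the yolk sac. The median ratio of observed to expected over 10 pairs was 1.13 in those wells of the AGM and 1.00 in those of the yolk sac, against 1.44 and 1.48 in the whole pools. In endothelial-like wells 8 of 10 pairs in the AGM and 5 of 10 in the yolk sac lay above 1. Flt1 with Nrp1 gave 1.38 (AGM) and 1.05 (yolk sac, 26 wells against 24.8 expected) there. Kdr with Nrp1 gave 1.15 and 1.04, Nrp1 with Plxnd1 1.14 and 1.10, and Kdr with Plxnd1 1.09 and 1.02. The lowest were Nrp2 with Plxnd1 (0.60, 4 wells against 6.67 expected) and Flt1 with Plxnd1 (0.70, 12 against 17.2) in the yolk sac. In the E11.5 AGM the lowest was Flt1 with Nrp2 (0.77, 9 against 11.8). In the E9.5 AGM 295 of 296 wells were endothelial-like, and Kdr with Flt1 stood in 42 of them against 34.9 expected. There 10 of 12 pairs lay above 1, with a median of 1.14.

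**Figure D5:**
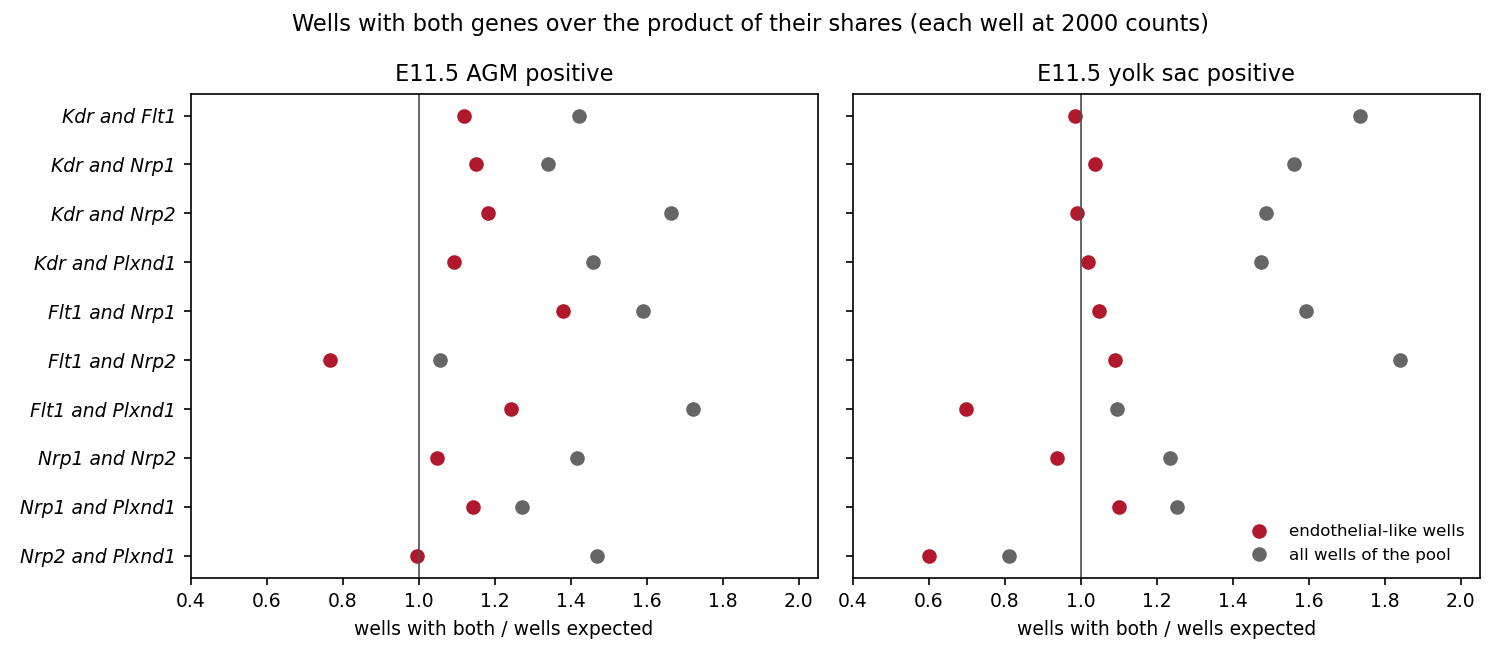
Wells with both genes over the number expected from the product of their shares, each well at 2000 counts, for 10 pairs of genes in the 2 positive pools of E11.5; red, endothelial-like wells, grey, all wells of the pool. Every red point lies left of its grey one, and in the yolk sac red points scatter about 1 (median 1.00).

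At that depth a neuropilin with a VEGF receptor (Kdr, Flt1 or Flt4) was found in 46 of 210 positive wells of the E11.5 AGM and 66 of 335 of the E11.5 yolk sac, and a neuropilin without one in 35 and 40. In negative wells 66 of 70 neuropilin wells of the E11.5 AGM, 161 of 166 of the E11.5 yolk sac, 78 of 79 of the E9.5 AGM and 8 of 8 of the E9.5 yolk sac had no receptor count. Among all negative wells of these pools 239 of 251, 350 of 364, 335 of 354 and 295 of 304 had none, so receptor counts were rare with or without a neuropilin. Vegfa with a receptor was found in 3 of 20 Vegfa wells of the E11.5 AGM negative pool and in 0 of 16 of that of E9.5. Among E9.5 yolk sac positive wells, Flt1 was seen in 25.6% (13.5% to 41.2%) of 43 wells with Runx1, the factor of blood formation from endothelium. It was seen in 44.6% (38.6% to 50.6%) of those without. Nrp1 was seen in 11.6% and 26.1% of these wells, Nrp2 in 11.6% and 21.4%, Plxnd1 in 18.6% and 21.4% and Kdr in 51.2% and 46.4%. In the E9.5 AGM Flt1 was seen in 28.6% (8.39% to 58.1%) of 14 wells with Runx1 against 34.0% (28.5% to 39.9%). In E11.5 yolk sac positive wells with Csf1r, a macrophage receptor, Kdr was seen in 12.1% (3.40% to 28.2%) of 33 wells, against 27.5% (22.5% to 32.9%) of the others.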

How the data were processed

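Single cells were dispensed on ICELL8 nanowell chips, 1 per stage, per the labels' protocols. The submitters' processing notes name FastQC, cutadapt and STAR and the builds mm10 and GRCm38, with no versions. The values are raw counts per gene and well as the authors deposited them; whether molecular identifiers were collapsed and whether strand was used are not given in the sources used here, so overlapping antisense reads cannot be told apart. Each pool is 1 sample.

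Counts were summed over wells with at least 500 genes (1361 at E11.5, 1283 at E9.5) with Python 3.11.15, numpy 2.4.6, pandas 2.3.3 and scipy 1.17.1. Ratios have exact conditional binomial intervals, levels exact Poisson and shares Clopper-Pearson ones, all at 95% and covering counting error only. A pair is measurable, and can be called, with at least 20 counts in its higher pool, and a count of 0 was read with a floor of 3 counts. Shares and co-detection used wells thinned to 2000 counts, leaving out shallower wells (at E11.5, 210 of 287 positive and 251 of 338 negative wells of the AGM and 335 of 357 and 364 of 379 of the yolk sac were kept; at E9.5, 296 of 299 and 354 of 354, and 319 of 325 and 304 of 305). Wells were clustered per chip with scanpy 1.11.5 on 2000 variable genes without the 7 genes described, 30 components, 15 neighbours and resolution 1, and named "X-like" by marker lists, so that the names may differ from those of the study. Scrublet marked 7 of 1361 wells of E11.5 and 8 of 1283 of E9.5 as doublets; these stayed in, and their removal was tried as an alternative. TMM factors came from edgeR 4.0.16 and size factors from DESeq2 1.42.0 in R 4.3.3, as other scalings only; calculations were tested on simulated data. The 5 genes nearest to each gene by Pearson r, the members of the lists called in every pair, and a few values of list genes are named. The genes and lists were chosen with earlier results of these data known.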

Additional observations from a re-analysis of the deposited data

Results flagged for a closer look

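In 6 comparisons a ratio lay on opposite sides of 0 in a matched pair of contrasts with 1 pool each, and the differences between the contrasts were not tested. The log2 ratio of Nrp1, positive over negative gate in the yolk sac, was -0.68 at E11.5 and 3.49 at E9.5. That of Nrp2 was -0.63 at E11.5 and 3.85 at E9.5. At E11.5 the ratio of Nrp1 over the gate was 0.63 in the AGM and -0.68 in the yolk sac. For AGM over yolk sac in the negative gate, Nrp1 gave -1.13 at E11.5 and 2.28 at E9.5, and Nrp2 gave -0.36 and 3.18. Plxnd1 in the positive gate, E11.5 over E9.5, gave 0.37 in the AGM and -0.61 in the yolk sac. The yolk sac value was no longer below 0 with totals without haemoglobin, mitochondrial genes and Gm42418 (0.16) and with DESeq2 size factors (0.07). It was also above 0 in wells of at least 3 endothelial markers (0.21), a choice that depends on depth as described above. Both tissues then lay above 0.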

How the results depend on the processing

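The 4 genes called over the gate in all 4 pairs kept log2 ratios above 1 in all 46 alternative values per gene. These are the values of the alternative settings over the 4 pairs, so the settings are fewer than 46. They lay between 3.62 and 5.87 for Flt1, 2.46 and 5.83 for Flt4, 4.41 and 6.00 for Kdr, and 3.38 and 5.56 for Plxnd1. The call of Flt4 was lost, leaving 3 genes, with wells of at least 1000 genes and, as an alternative added after seeing the data, with wells of at least 3 endothelial markers, where it had too few counts. In the negative gate the 1 tissue call, Vegfa, became 0 under TMM scaling and under DESeq2 size factors, where 564 and 555 genes in all were called higher in the AGM, against 2398 with plain totals. Its 1 stage call became 0 under both scalings, with wells weighted alike, and with wells of at least 1000 genes, where too few counts remained. Pairs found together more often than expected were 42 of 47 at 2000 counts a well and 21 of 26 at 1000, since fewer pairs then reach 5 expected wells. Of 863 alternative values of single ratios, 733 lay within the counting interval, 130 did not and 0 reversed a call. The 84 values without the minimum of 20 counts repeat the main ratios and could not differ, also where they are among the 46 per gene. In 68 the sign of an uncalled ratio changed, among them Nrp1 (0.06) and Nrp2 (0.78) over the gate in the E11.5 yolk sac with endothelial-like wells alone. With 1 E9.5 yolk sac positive well in endothelial-like clusters, counts over pairs that need that pool could not be given for such wells. No paired analysis was possible because each pool is 1 sample and every group has replicate 1 only. Depth limits Flt4 and Vegfa most, with 1 to 94 and 4 to 45 counts a pool.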
